A study of Drosophila melanogaster with 2 samples.

Results

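The muscle and heart fate regulators described here are 10 transcription factor genes of Drosophila melanogaster, tin, bap, org-1, Doc1, Doc2, Doc3, pnr, twi, Hand and Mef2, among 13945 protein-coding genes on the chromosome arms X, 2L, 2R, 3L, 3R and 4. They were chosen by name, with earlier results of these data known. Each was examined for binding of Gug from 2000 bp upstream of its start to its end. Of the 10 genes, 4 held a summit of binding: tin and org-1 at their promoters, and Mef2 and twi mostly in introns. The other 6 held none that passed the threshold, and bap and Hand had no peak of any strength.

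The study mapped Gug (Grunge, the fly Atrophin), a corepressor that reaches DNA through other proteins. Prepupae aged 1 day, of the strain Gug-GFP with an insertion that targets Gug and makes a Gug-eGFP fusion, were used whole, and the precipitating antibody recognised GFP, although the antibody field of the labels reads Gug. All samples are 2 biological replicates of this 1 group, so no untreated or untagged group can be compared with it. The sex of the animals, the copy number of the locus and the sequence that drives the fusion are not given in the labels. The animals were not dissected, and peak lists hold no expression from which tissue markers could be checked. In such material a site bound weakly in many cells and a site bound strongly in few cells cannot be told apart.

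In the fly embryo, twi encodes the basic helix-loop-helix factor that starts mesoderm development, and it activates Mef2, the MADS box gene needed for muscle differentiation, and tin, the NK homeodomain gene needed for heart formation. Downstream of tin, bap (NK homeodomain) acts in visceral muscle. The T-box genes Doc1, Doc2 and Doc3 and the GATA factor gene pnr act in the forming heart, and Hand (basic helix-loop-helix) in heart and circulatory cells. The T-box gene org-1, the fly counterpart of vertebrate Tbx1, acts in visceral muscle and in the identity of some body wall muscles. At the prepupal stage larval muscles begin to break down, and twi marks the precursors from which adult muscles form, which depend on Mef2.

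The sequences under the promoter summits of tin and org-1 are printed first, because these are the only thresholded summits within 1000 bp of a transcript start of any of the 10 genes. Each is 200 bp of dm6, from RefSeq, around the summit, read 5′ to 3′ on the strand of the gene. The tin window is chr3R:21378671-21378870 on the plus strand, and the org-1 window is chrX:8455334-8455533 on the minus strand. Another window, chr3L:9045389-9045588 on the plus strand, is shown because its summit, 447 bp beyond the end of Doc1, falls just outside the region counted for that gene. Capitals mark matches, on either strand, to the 12 motifs that were searched.
tin: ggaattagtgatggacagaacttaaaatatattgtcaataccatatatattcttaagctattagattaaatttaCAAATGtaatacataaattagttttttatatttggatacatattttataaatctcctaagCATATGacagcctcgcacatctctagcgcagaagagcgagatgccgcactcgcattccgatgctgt
org-1: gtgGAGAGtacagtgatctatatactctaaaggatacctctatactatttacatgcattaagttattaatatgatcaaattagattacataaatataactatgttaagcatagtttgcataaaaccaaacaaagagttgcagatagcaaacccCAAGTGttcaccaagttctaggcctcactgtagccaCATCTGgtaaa
Doc1, downstream: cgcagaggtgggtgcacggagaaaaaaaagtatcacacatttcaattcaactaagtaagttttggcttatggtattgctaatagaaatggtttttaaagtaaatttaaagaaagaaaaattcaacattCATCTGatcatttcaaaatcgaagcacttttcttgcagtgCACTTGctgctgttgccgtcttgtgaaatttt

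All 3 windows held a pair of E-boxes (CANNTG), the letters that basic helix-loop-helix factors recognise. In the tin window, 1 of them read CATATG, the form that is best known for Twist. CANNTG is common. At least 1 was held by 59.5% of all 5750 thresholded summit windows and 61.7% of the 200 bp windows upstream of 19253 transcript starts of coding genes. The share of windows with a pair is not given here. CATATG, which is counted in CANNTG as well, was in 7.06% of summit windows and 5.57% of upstream windows. The org-1 window also held GAGAG, the core of the GAGA factor motif, found in 24.2% of summit windows and 25.3% of upstream windows. The other motifs searched were GATAA (GATA factors), AAGTCA and AGGTCA (core sites of nuclear receptors), AGGTGT (T-box), TNAAGTG (Tinman), the Mef2 motif, TAATTA (homeodomain), TATCGATA (the DNA replication-related element) and GGCGCC, and none of these was in the 3 windows. The shares of summit windows and of upstream windows were 37.7% and 42.3% for GATAA, 9.90% and 10.2% for AAGTCA, 3.57% and 3.64% for AGGTCA, and 5.10% and 5.51% for AGGTGT. They were 15.4% and 12.5% for TNAAGTG, 3.18% and 3.53% for the Mef2 motif, 16.1% and 14% for TAATTA, 1.27% and 6.14% for TATCGATA, and 2.12% and 3.42% for GGCGCC. Over the windows of all 12 thresholded summits of the 10 genes, CANNTG was in 7, GATAA in 8, GAGAG in 3, CATATG and TNAAGTG in 2 each and AGGTGT in 1. GATAA was at twi and Mef2 only, in 4 of 5 windows of each gene. The remaining 6 motifs were in none of the 12. Of the 12, the windows of tin and org-1 alone held a pair of CANNTG, and the others held 1 or none. A further window that is not printed, around a summit at 9034513 between Doc2 and Doc1, held 1 CANNTG and a GATAA. A match is a description of the letters in a window and not evidence of a bound site. GC content was 32.5% at tin, 33.5% at org-1 and 34% downstream of Doc1, beside a median of 35% over all summit windows and 39% over the upstream windows.

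Gug summits in the thresholded list of both replicates together (the joint list) were present at 4 of the 10 genes, where 25.7% of all coding genes held 1 or more. Members of the thresholded list are peaks with an irreproducible discovery rate (IDR, a measure of how well a peak keeps its rank between replicates or their parts) of 0.01 or less. Long genes hold summits more often, from 14.2% of genes up to 2 kb to 67.4% of genes over 50 kb. The shares of each gene's own length class add up to 3.66 genes over the 10, so that the count of 4 lies close to the background in this list. Among its 1000 peaks with the highest signal the count was still 4 of 10, while 7.77% of all coding genes held such a summit and the length classes add up to 1.23 genes. Each of the 4 genes held 1 of these strongest summits, and those of Mef2 and twi had the start of another gene as their nearest coding transcript start. No test was made of either count, since the 10 genes were chosen with earlier results of these data known. Either replicate alone gave the same 4 genes, with 20.3% of coding genes in replicate 1 and 21.1% in replicate 2 as background.

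**Figure D1:**
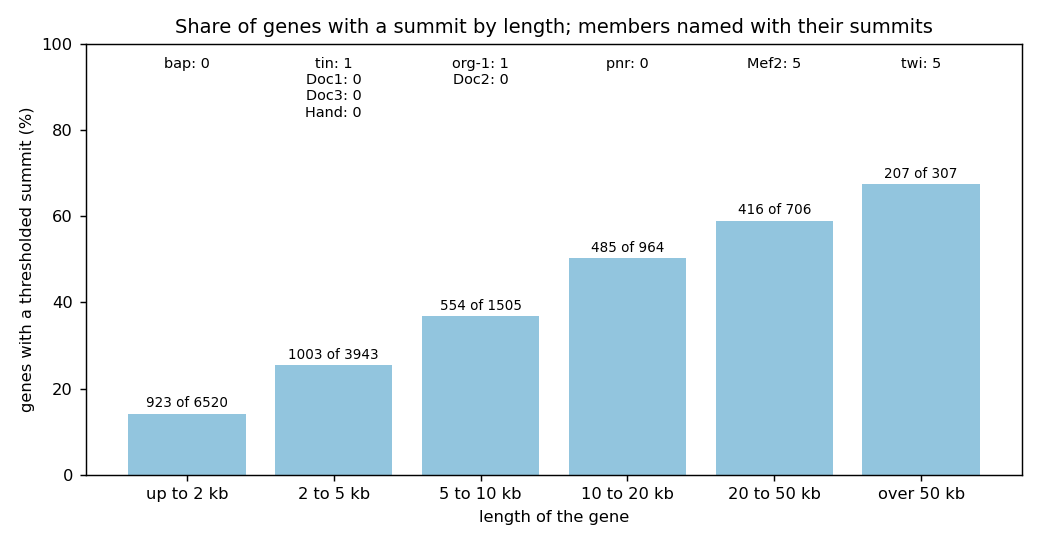
Share of protein-coding genes with a thresholded Gug-eGFP summit from 2000 bp upstream to the gene end (vertical axis, percent) in 6 classes of gene length (horizontal axis), with the number of genes above each bar. The 10 fate regulators are named in their class with their number of summits, and the share of all genes rises with length from 14.2% to 67.4%.

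Beside a transcript start, within 1000 bp, 2 of the 10 genes had a thresholded summit, tin and org-1, where 18.9% of all coding genes did. The shares of the length classes add up to 2.54 genes. Mef2 and twi held 5 summits each, a number reached or passed by 1.66% of coding genes. At Mef2, 1 of the 5, with a signal of 9.0, shared the matched peaks of another. Neither gene reached 5 in a single replicate: Mef2 held 3 in each, and twi held 2 in replicate 1 and 3 in replicate 2. They are also the longest of the 10, and genes of their length classes held a mean of 1.77 summits (20 to 50 kb, the class of Mef2) and 3.76 summits (over 50 kb, the class of twi). In all there were 12 thresholded summits, 3 in promoters (within 500 bp of a transcript start of any gene) and 9 in introns. All 9 intronic summits were at Mef2 and twi. The shares of these classes over all thresholded summits are not given here, so the split only describes these genes.

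**Figure D2:**
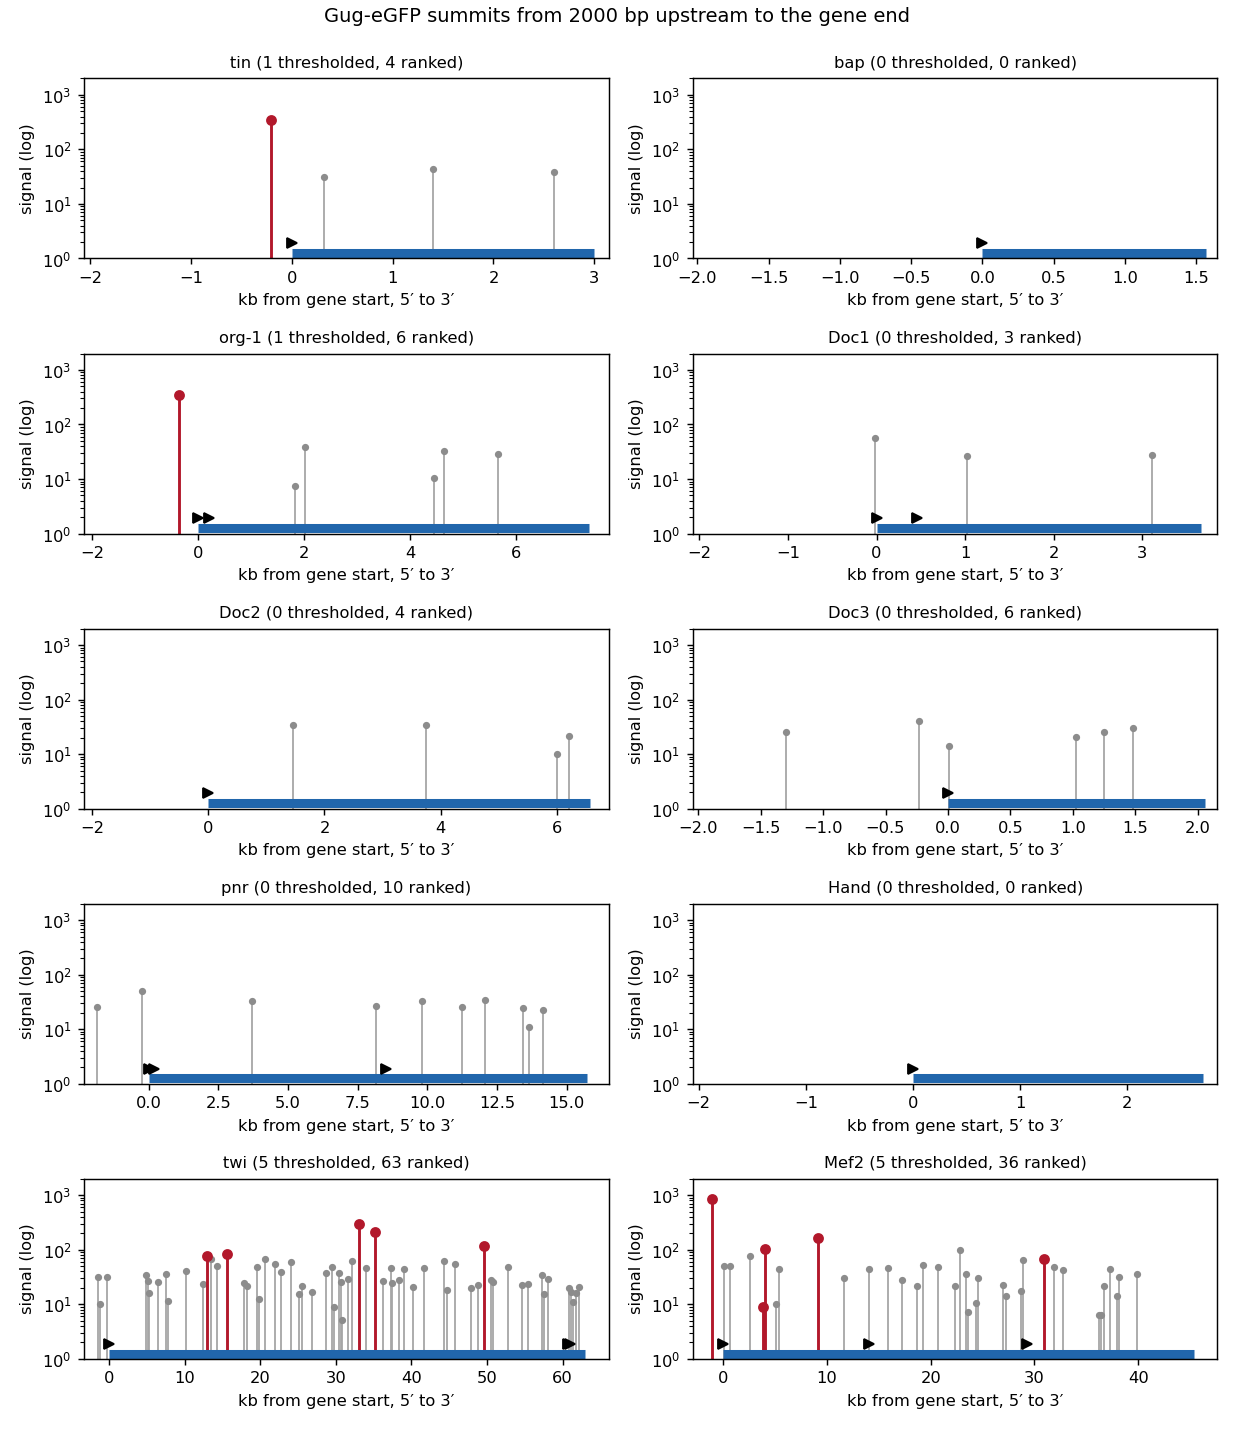
Deposited signal of each summit (vertical axis, log scale) against its distance from the gene start in kb (horizontal axis, 5′ to 3′) for the 10 genes. Red stems are thresholded summits and grey stems are ranked summits that failed the threshold. The blue bar is the gene and black arrowheads are its transcript starts. tin and org-1 each have 1 red summit just upstream of the start, and bap and Hand have no summit.

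The NK homeodomain genes tin and bap neighbour each other on arm 3R, with 6.9 kb between them, and differed in their peaks. tin (FBgn0004110, 21378977 to 21381970, plus strand) had a summit at 21378771, 206 bp upstream of its only annotated transcript start, in a peak 171 bp wide. Its signal, the deposited value of the peak caller, which has no unit, was 353 in the joint list, 123 in replicate 1 and 238 in replicate 2. The peak ranked 456th of 5753 by signal and had the smallest IDR the list gives, 1e-05, and it passed the threshold in each replicate alone. The summit also lies 1370 bp from a transcript start of mod(mdg4), the neighbouring gene on the other strand, which encodes a chromatin insulator protein. The remaining 3 ranked peaks of tin, with signals from 31.8 to 43.3, failed the threshold, and 2 of them were in coding exons.

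bap (FBgn0004862, 21388880 to 21390449, plus strand) had no peak in the ranked lists of replicate 1, of replicate 2 or of both together. A ranked peak was present in the same window at 79.3% of all coding genes, and absent at 30.3% of genes up to 2 kb. The 6.9 kb between tin and bap held no ranked peak either. The nearest thresholded summit to the start of bap was that of tin, 10109 bp away.

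Among the T-box genes, org-1 stood with tin. org-1 (FBgn0021767, arm X, 8447691 to 8455069, minus strand) had a summit at 8455434, 365 bp upstream of the nearer of its 2 annotated starts, in a peak 193 bp wide. The joint signal was 352, against 147 in replicate 1 and 205 in replicate 2, and the IDR was 1e-05. It ranked 458th, close to tin, and passed in each replicate alone. No other coding gene counted this summit in its own window. The other 5 ranked peaks of org-1 were all in introns, with signals from 7.51 to 39.0, and failed the threshold.

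The 3 Doc genes lie together on arm 3L, and none held a thresholded summit. Doc1 (FBgn0028789, 9041375 to 9045042, plus strand) had a promoter peak at 9041354, 21 bp upstream of its start, whose joint signal was 56.8, against 21.0 in replicate 1 and 33.2 in replicate 2. Its IDR of 0.132 placed it outside the list. Doc3 (FBgn0035954, 9005196 to 9007249, plus strand) had a promoter peak at 9004962, 234 bp upstream of its start, with a joint signal of 40.8, against 11.9 in replicate 1 and 38.1 in replicate 2, and an IDR of 0.684. Doc2 (FBgn0035956, 9012686 to 9019246, minus strand) had 4 ranked peaks over both replicates together, the strongest in an intron at 9015497 with a signal of 34.0. In replicate 2 alone Doc2 had 0 ranked peaks and in replicate 1 it had 6.

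Thresholded summits did occur around Doc1, outside the region counted for it. The summit whose sequence is printed above, at 9045489, had a joint signal of 133, with 46.3 in replicate 1 and 81.2 in replicate 2, and passed in each alone. Its nearest coding transcript start was that of the arginine kinase gene Argk2, 1950 bp away. In the 22.1 kb between Doc2 and Doc1 there was 1 thresholded summit, at 9034513, with a joint signal of 88.4 (44.4 and 41.8 in the replicates, neither of which passed alone) and no coding transcript start nearer than that of Doc1, 6862 bp away. Beyond Doc1, the arginine kinase gene Argk1 had a promoter summit with a signal of 489 at 9057930. The 5.4 kb between Doc3 and Doc2 held ranked peaks of at most 41.6 and no thresholded summit.

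The GATA factor gene pnr (FBgn0003117, arm 3R, 16026079 to 16041796, plus strand) had 10 ranked peaks, the median of genes of 10 to 20 kb, and no thresholded summit. The strongest was at the promoter, at 16025846, 233 bp upstream of the first start, whose joint signal was 49.8, against 13.3 in replicate 1 and 28.6 in replicate 2, with an IDR of 0.125. In its length class 50.3% of genes held a thresholded summit. The nearest thresholded summit to a pnr start was 31941 bp away, at the promoter of srp, another GATA factor gene, with a signal of 67.9. It had 25.8 in replicate 1 and 39.9 in replicate 2 and passed in neither alone. Each of the other 9 genes had a thresholded summit closer than this to a start, the farthest being Doc2 at 15267 bp.

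The basic helix-loop-helix genes twi and Hand differed as well. Hand (FBgn0032209, arm 2L, 10292679 to 10295385, minus strand) had no peak in the ranked list of either replicate or of both together, as at 16% of genes of 2 to 5 kb. The nearest thresholded summit to its start was 11347 bp away, at the promoters of CG5390 and CG4968, with a joint signal of 141 and 82.9 and 53.3 in replicates 1 and 2.

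twi (FBgn0003900, arm 2R, 22985374 to 23048325, plus strand) held 5 thresholded summits, all of them in introns. The gene is annotated over 62952 bp because of 1 transcript that starts at 22985374, and its other starts are at 23046108 and 23046322. All 5 summits lie in the long first part of that transcript, and the closest to any twi start was 11133 bp away. The strongest, at 23018436, had a signal of 293, with 131 in replicate 1 and 168 in replicate 2. The next, at 23020593, had 214, with 108 in replicate 1 and 99.8 in replicate 2. These peaks, 169 and 106 bp wide, passed in each replicate alone. The summit at 23034975 had 116, with 33.6 and 77.4 in the replicates, and was in the list of replicate 2 only.

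These 3 twi summits lie inside CG42741 (arm 2R, 23011078 to 23042943, minus strand), a coding gene within the twi intron, at 24507, 22350 and 7968 bp from its start. The weaker summits at 23000930 (84.9; 40.6 and 48.6 in the replicates) and 22998383 (76.4; 38.5 and 36.7) were in the list of neither replicate, and CG9896 was the nearest coding gene to both, with its start 2046 and 501 bp away. No thresholded summit had a twi start as its nearest coding transcript start. When twi was taken from its second start, at 23046108, it held none, and the 10 genes together held 7 summits at 3 genes. This gene model was chosen after the values were seen. Of the 58 twi peaks that failed the threshold, the strongest had a signal of 68.0, and in all twi had 63 ranked peaks, where the median for genes over 50 kb was 42.

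Mef2 (FBgn0011656, arm 2R, 9913496 to 9958858, minus strand) had the strongest summit of the 10 genes. It lay at 9959928, and its joint signal was 838, against 403 in replicate 1 and 438 in replicate 2. It ranked 70th of 5753, and 1.2% of the list had a higher signal. The summit is 1070 bp upstream of the first Mef2 start, but 150 bp from a transcript start of Pal1 and 196 bp from that of Pdrg1, both neighbouring coding genes. By distance it belongs to the promoters of these genes, and it was counted for Mef2 only through the 2000 bp upstream. Distance alone does not assign it to a gene.

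The other 4 Mef2 summits lie in introns, and the nearest coding transcript start to each was a Mef2 start. At 9949723 the signal was 166, with 68.0 in replicate 1 and 106 in replicate 2, 4959 bp from the nearest start. At 9954807, 4051 bp from the first start, it was 105, with 46.6 and 61.6 in the replicates. Both passed in each replicate alone. A summit at 9955008, with a signal of 9.0, shares the matched peaks of the one at 9954807, and neither replicate had a separate summit within 100 bp of it. The last, at 9927897, had 68.3, with 39.4 and 38.8 in the replicates, and lay 1718 bp downstream of the start at 9929615, which 8 of the 11 annotated Mef2 transcripts use. This summit was in the list of neither replicate. Its match in replicate 1 lay 100 bp away, the largest distance allowed.

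Mef2 also had the strongest peak that failed the threshold. At 9936021, in an intron, the signal over both replicates was 97.5, with 16.1 in replicate 1 and 87.3 in replicate 2. The IDR was 0.0126, and why this peak failed was not tested. At the start at 9929615, a peak 308 bp upstream had a signal of 64.2 and an IDR of 0.668 in the main ranking. It passed in another deposited list of both replicates, which its authors call conservative, with an IDR of 0.00229, and with it Mef2 would join tin and org-1 as a gene with a summit within 1000 bp of a start. Replicate 1 had no peak within 100 bp of it and replicate 2 had 42.1. In all Mef2 had 36 ranked peaks, and the median for genes of 20 to 50 kb was 18.

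**Figure D3:**
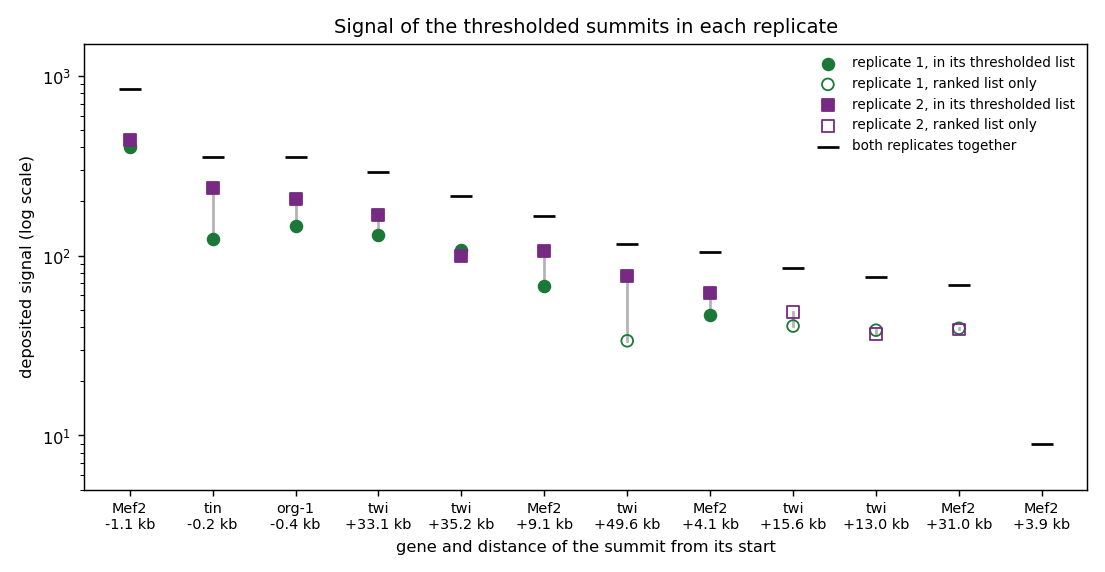
Deposited signal (vertical axis, log scale) of the 12 thresholded summits in replicate 1 (circles), replicate 2 (squares) and both together (bars), ordered by the joint signal, with gene and distance from its start on the horizontal axis. Filled symbols are in the thresholded list of that replicate. The 6 summits with the highest joint signal are filled in both replicates, and the weakest, in Mef2, has a bar only.

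Support from single replicates was least for the weakest summits. Of the 12 thresholded summits, 7 were in the list of each replicate, 1 in that of a single replicate and 4 in neither, and these 4 had the lowest joint signals, 84.9 or less. Over all 5750 summits on the arms, 50.2% were in both lists, 27.1% in a single list and 22.7% in neither. The joint signal and the replicate lists come from the same reads, so this order is no independent evidence. Signal in replicate 2 was higher than in replicate 1 at 8 of the 11 summits matched in both, but the lists are not on a common scale. The ratio of replicate 2 to replicate 1 had a median of 1.24 over the 5075 summits matched in both, with quartiles of 1.02 and 1.52. The ratio was 1.93 at tin, 1.40 at org-1, 1.09 at the strongest Mef2 summit and 1.29 at the strongest twi summit, and the widest was 2.31, at the twi summit at 23034975.

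**Figure D4:**
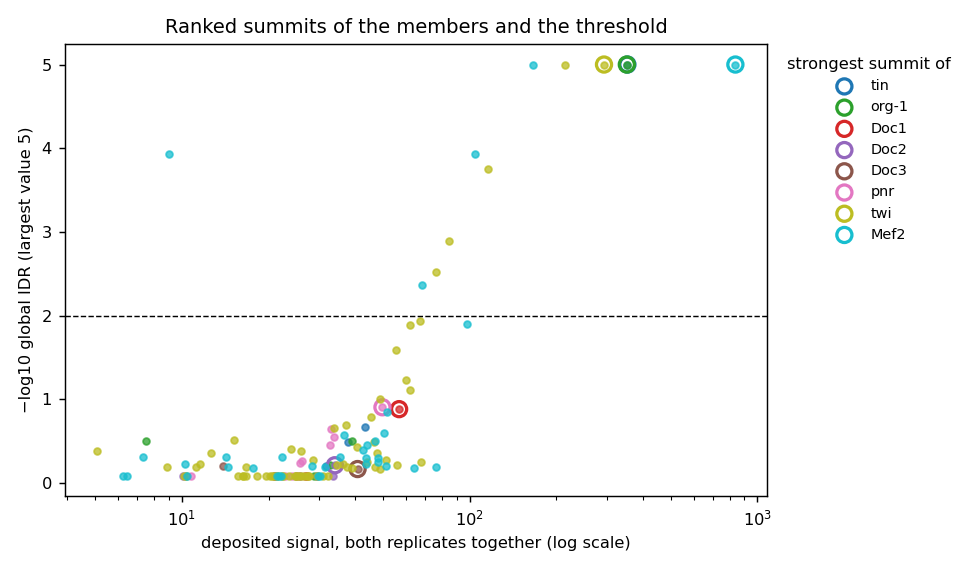
Negative log10 of the global IDR (vertical axis) against the deposited signal over both replicates (horizontal axis, log scale) for the ranked summits of 8 genes. Rings mark the strongest summit of each gene and the dashed line is the threshold at an IDR of 0.01. The rings of tin, org-1, twi and Mef2 are at the top, and those of Doc1, Doc2, Doc3 and pnr are below the line.

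Most ranked peaks of the 10 genes failed the threshold, as did most over the arms. The ranked list of both replicates placed 132 summits at the 10 genes, of which 120 failed the threshold, with a median signal of 28.0. On the arms that list held 65443 summits, with a median signal of 27.4, and the thresholded list held 5750. Signals of failed and thresholded peaks overlapped. Failed peaks reached 97.5, with 8 over 60, while the thresholded summits of these genes went down to 9.0. Positions of the failed peaks were 79 in introns, 19 in promoters, 17 in coding exons, 3 in 5′ UTRs and 2 between genes. None of the 12 thresholded summits was in a coding exon, and the share in coding exons over all thresholded summits is not given here. In this ranking, no peak of the 10 genes with an IDR of 0.01 or less was missing from the thresholded list, while the conservative list held 3 further summits, 1 at Mef2 and 2 at twi.

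A wider list of 57 other heart and muscle development genes was examined in the same way. Of these, 26 held a thresholded summit, or 45.6%, where the shares of their length classes add up to 27.3 genes, and 8 had a summit within 1000 bp of a start, where the length classes add up to 16.7. Among the 1000 strongest peaks 7 of the 57 held a summit, where the length classes add up to 10.2. No test was made of these counts, since the list was written with earlier results of these data known. By role, 5 of 9 genes of mesoderm induction and FGF signalling held a summit, 5 of 10 for heart and pericardial fate and 3 of 6 for visceral muscle fate. The counts were 3 of 14 for somatic muscle identity, 4 of 9 for myoblast fusion and 6 of 9 for muscle differentiation and its restraint. For the 14 somatic identity genes the length classes add up to 6.24, and in the other roles the count and the sum differed by less than 2 genes.

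**Figure D5:**
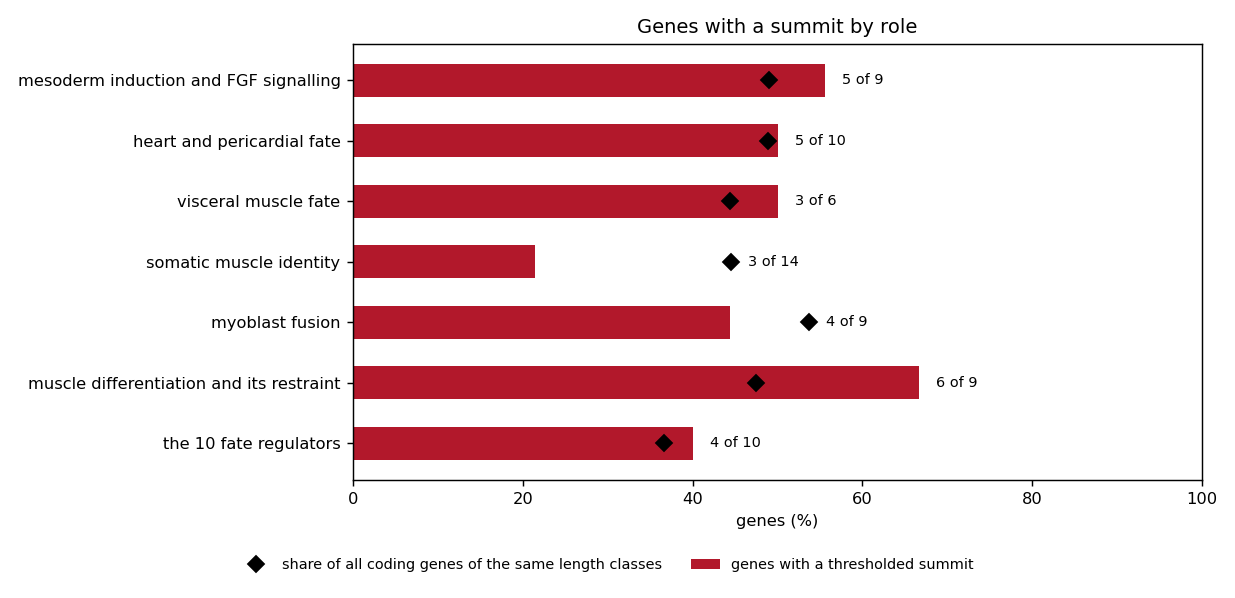
Percent of genes with a thresholded summit (red bars) for 6 roles of the wider heart and muscle list and for the 10 fate regulators, with counts beside the bars. Diamonds give the mean share over all coding genes of the same length classes. The bar falls farthest below its diamond for somatic muscle identity, at 3 of 14 genes.

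The strongest summits of the wider list lay mostly in introns, away from starts, and for 7 of the 18 genes named here the nearest coding transcript start was that of another gene. For signals upstream of the mesoderm factors, dpp, the BMP ligand that maintains tin in the dorsal mesoderm, had 576, wg, a Wnt ligand, had 220, and tkv, a BMP receptor gene, had 152, all in introns. The values for dpp were 249 in replicate 1 and 322 in replicate 2. In heart and pericardial fate, zfh1, a zinc finger and homeodomain gene, had 469 (188 and 279 in the replicates), ush, the Friend of GATA cofactor of pnr, had 164 and held 6 summits, and svp, a nuclear receptor gene, had 129. The visceral muscle genes were led by Fas3, an adhesion molecule (220), bin, the fly FoxF gene (168), and jeb, the ligand of Alk (108).

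Somatic muscle identity genes with summits were Pdp1 (252), nau, the fly MyoD homolog (124), and ara, an Iroquois gene (71.8). Myoblast fusion genes were led by kirre, a receptor of founder cells (431), mbc, an activator of Rac (286), and rols, an adaptor of the fusion site (128). Among genes of differentiation and its restraint, chn, a zinc finger gene, had a promoter summit of 562, 111 bp from a start. It had 259 in replicate 1 and 318 in replicate 2. The Notch receptor gene N had 334 and how, an RNA-binding protein gene, had 156, both in introns. Of the 18, chn had its strongest summit within 1000 bp of one of its own starts and the other 17 did not. The strongest summit of ara was in the list of neither replicate. That of bin was in the list of replicate 1 only and that of tkv in the list of replicate 2 only, and the rest of the 18 passed in each replicate alone.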

How the data were processed

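Peak lists on dm6 were deposited by the authors for each of 2 replicates and for both together, as ranked and thresholded lists. Per the deposited README files, each list was made from filtered alignments and a control alignment, and thresholded lists also used a further region file, not used here. Aligner, peak caller and settings are not given in the sources used here. The signal deposited by the authors is the caller's value per peak, with no unit, used only within a list. The −log10 IDR deposited by the authors gave the threshold, and all thresholded peaks had an IDR of 0.01 or less. Read depth is unknown, so no interval of a signal can be given.

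Summits were set against Ensembl release 115 genes and the RefSeq dm6 sequence, with Python 3.11.15, pandas 2.3.3 and NumPy 2.4.6. Peak ends lay within the arm lengths. The list with 5753 peaks was the main one (5750 on the arms), and its replicate signal is that of the nearest ranked summit at most 100 bp away. Counts were checked on simulated data. With 1 group there is no contrast and no test. Genes named beyond the 10 were up to 3 per role with the highest signal. The members and lists were chosen with earlier results of these data known. Alternatives were another peak set, each replicate alone, stricter thresholds, other windows and peak overlap.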

Additional observations from a re-analysis of the deposited data

How the results depend on the processing

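Of 56 recomputed counts and shares, 46 stayed within 1.5 times the main value. Genes of the 10 with a thresholded summit numbered 4 in each list and threshold tried, and 2 with the gene body only, which drops the upstream summits of tin and org-1. Summits over the 10 genes numbered 12, and were 4 among the 1000 peaks with the highest signal, 7 to 8 with a replicate left out and 15 in the conservative set. The 5 summits of Mef2 became 1, 3 and 6 under these settings, and the 5 of twi became 1, 2 to 3 and 7. Alternatives added after the data had been seen gave 6 summits (3 genes) when a summit counted only for the gene with the nearest coding start, 7 (3 genes) with twi from its second start, and 11 with 1 summit per matched peak. Genes with a summit within 1000 bp of a start numbered 2, or 3 in the conservative set and within 2000 bp. The wider list gave 26 genes, 7 with the 1000 strongest peaks and 19 with either replicate left out. The share of all coding genes was 25.7%, 7.77% with the 1000 strongest peaks, 12.4% for the gene body and 20.3% to 21.1% with a replicate left out. Ranked summits numbered 132, and 83 to 110 with a replicate left out. Of the 12 summits, 11 were matched in both replicates within 100 bp, and 7 within 50 bp. No paired analysis was possible because all samples belong to 1 group. The depth of the libraries is unknown, so an absent peak may lie below what they could show.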
